A study of Homo sapiens with 4 samples.

Results

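The genes described here are components of the NF-kappaB pathway and the feedback genes that it controls, 36 genes in all, read in a bladder cancer line that carries an introduced RhoGDI2. They were chosen by name: a list of 36 gene symbols was matched to the probe sets to which the platform annotation gives a single gene, and each gene is read from whichever of these has the highest mean over the 4 arrays. Of the 36 genes, 31 had such a probe set, out of 19775 genes on the array, and the 31 had 72 probe sets between them. BCL3, BIRC3, IRAK4, RIPK1 and TRAF2 did not and were not analysed here.

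UM-UC-3 is an established line of human bladder cancer cells. One derivative carried GFP-tagged RhoGDI2, the product of ARHGDIB, as a stable transfection, and the control derivative carried GFP alone; both were sorted for fluorescence and harvested in log phase growth, with 2 arrays each. Replicates A and B, which the labels call biological, were prepared at different times and each GFP-RhoGDI2 array has a GFP array of the same preparation. The control's labels name pBABE PURO as the selection plasmid, whereas the description of the GFP-RhoGDI2 samples repeats the control's, so that line was identified from its title, source, growth protocol and genotype. The sources used here do not say whether each line was transfected once or more, so effects of making each line cannot be told apart from those of the introduced gene.

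NF-kappaB is a family of dimeric transcription factors built from RELA, RELB, REL and the processed products of NFKB1 and NFKB2. In resting cells the dimers are held in the cytoplasm by I-kappa-B proteins; receptors of the TNF, interleukin-1 and Toll-like families act through adaptors, ubiquitin ligases and the kinase TAK1 on the I-kappa-B kinase complex, which marks the inhibitors for destruction. The freed factors switch on chemokine and adhesion genes and also their own brakes, among them NFKBIA and TNFAIP3, so the transcripts of these brakes are commonly read as a trace of pathway activity. Most steps of the pathway are changes of protein state, which an array of transcripts does not measure.

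The promoter sequences below are shown because they hold, or lack, the site that NF-kappaB reads. They are from the brakes NFKBIA and TNFAIP3, the transcription factor gene NFKB1 and the called member TNFAIP2. They are the 250 bases before the annotated start site, from RefSeq on GRCh38.p14, written 5′ to 3′ on the strand of the gene. TNFAIP2 belongs to the set by the rule for sequences, which takes members called in the main fit. SQSTM1, also called, has 3 listed windows, and these are not shown. NFKBIA, TNFAIP3 and NFKB1 were added after their values were seen. For NFKB1 the window of the first of its listed start sites is shown, and its other window, chr4:102501684-102501933, holds no match to the consensus. Capitals mark matches to the kappa B consensus in NFKBIA, TNFAIP3 and NFKB1, and to the antioxidant response core TGACNNNGC in TNFAIP2.
NFKBIA, chr14:35404750-35404999, minus strand: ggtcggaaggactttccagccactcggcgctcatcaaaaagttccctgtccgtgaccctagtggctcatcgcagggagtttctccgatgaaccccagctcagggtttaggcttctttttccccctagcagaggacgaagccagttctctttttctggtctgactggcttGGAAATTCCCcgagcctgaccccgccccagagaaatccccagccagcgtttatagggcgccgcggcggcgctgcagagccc
TNFAIP3, chr6:137867009-137867258, plus strand: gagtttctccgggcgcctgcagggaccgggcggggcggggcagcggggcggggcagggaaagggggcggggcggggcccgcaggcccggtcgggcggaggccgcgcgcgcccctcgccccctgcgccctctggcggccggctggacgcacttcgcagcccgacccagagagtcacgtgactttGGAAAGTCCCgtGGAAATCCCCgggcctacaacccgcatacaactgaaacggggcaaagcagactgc
NFKB1, chr4:102501109-102501358, plus strand: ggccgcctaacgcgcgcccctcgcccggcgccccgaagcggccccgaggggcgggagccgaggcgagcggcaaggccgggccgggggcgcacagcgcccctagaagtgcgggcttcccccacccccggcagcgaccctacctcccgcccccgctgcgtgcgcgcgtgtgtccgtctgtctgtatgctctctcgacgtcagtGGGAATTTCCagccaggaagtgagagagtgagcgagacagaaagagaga
TNFAIP2, chr14:103123211-103123460, plus strand: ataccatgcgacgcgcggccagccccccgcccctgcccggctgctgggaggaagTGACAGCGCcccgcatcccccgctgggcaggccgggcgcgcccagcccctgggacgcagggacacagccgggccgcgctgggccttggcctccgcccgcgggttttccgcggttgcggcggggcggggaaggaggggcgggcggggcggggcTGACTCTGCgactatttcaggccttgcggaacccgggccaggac

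The NFKBIA window held 1 match to the consensus, from -81 to -72 of the start site, the TNFAIP3 window 2, from -67 to -58 and from -55 to -46, and the NFKB1 window 1, from -49 to -40. The TNFAIP2 window held no match to the consensus, but 2 antioxidant cores, from -196 to -188 and from -44 to -36; the NFKBIA window also holds this core, left in lower case. The promoter table listed 31 of the 36 members, and of these 13, or 41.9%, had the consensus on either strand in at least 1 window, namely BIRC3, CYLD, IRAK1, NFKB1, NFKB2, NFKBIA, NFKBIB, NFKBIZ, REL, TAB2, TNFAIP3, TNIP1 and TRAF3. The same search found it in 11.8% of all 27305 genes of the table. Among genes tested on the arrays and listed there, 1551 held it and 8283 did not, and among tested members 12 and 13. The consensus is close to a palindrome, so 1 site can match on both strands. Members' windows were richer in G and C (median 69.6%, against 58.0% over all 35116 windows). The 31 members had 51 windows and the 27305 genes 35116, so members had more windows per gene in which to match. The member list was also named to hold feedback genes that the pathway controls. The parts of this choice, of base composition and of window number in the difference were not tested. The antioxidant core was found in 22.6% of members and 13.2% of all genes, and the AP-1 site, TGACTCA or TGAGTCA, in 3.23% of members and 5.19% of all genes. Each match is a run of letters in the reference and not a measured binding site. None of the SQSTM1 windows held the consensus, the antioxidant core or the AP-1 site. RELB, NFKBIE, IKBKB, RIPK2 and IER3 were not matched.

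Values are log2 RMA expression, so a difference of 1 is 2-fold. The introduced gene was read first: the best ARHGDIB probe set was at 11.94 and 11.58 on the GFP-RhoGDI2 arrays A and B, and at 6.51 and 6.27 on the GFP arrays, while its other probe sets differed by 0.94 and -0.02. Of the urothelial and epithelial markers, KRT18 and KRT8, simple epithelial keratins, had mean levels of 13.31 and 9.07 over the 4 arrays and were called lower in the GFP-RhoGDI2 line, by -0.59 and -1.23; their part in the results below was not tested. KRT7 and GATA3 were tested and not called. The uroplakins UPK1A, UPK1B, UPK2 and UPK3A had mean levels between 3.6 and 4.43, under the filter on low values at 4.637. UPK1A was at 4.95 and 4.55 on the GFP-RhoGDI2 arrays and at 4.18 and 4.03 on the GFP arrays, and was not tested. It differed by 0.65, higher in both preparations, and the other uroplakins by -0.17 to -0.03. KRT5, KRT19, KRT20, CDH1 and EPCAM were also under the filter, with mean levels from 2.95 to 4.56. The 3 macrophage markers lay between 3.43 and 4.43 and PTPRC, the common leukocyte antigen, at 3.27, all under the filter and not tested. Of 4 lymphoid and blood markers on the array 1 was tested (HBB), and of 3 endothelial markers 1 (PECAM1), and neither was called. Without detection calls, a gene under the filter cannot be called absent.

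Of the 31 members with a probe set, 30 had a mean at or above the filter and were tested. Only 3 of these, 10.0%, changed at an adjusted p under 0.05, against a background of 8.17% of all 12123 genes tested (991 genes). IER3 was the member called higher (4.83% of all genes were called higher), and TNFAIP2 and SQSTM1 were called lower (3.35% of all genes). The member count is thus near the background. In these bulk samples fewer cells with a transcript and less of it per cell cannot be told apart. No member differed by 2-fold or more on the mean of the preparations.

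**Figure D1:**
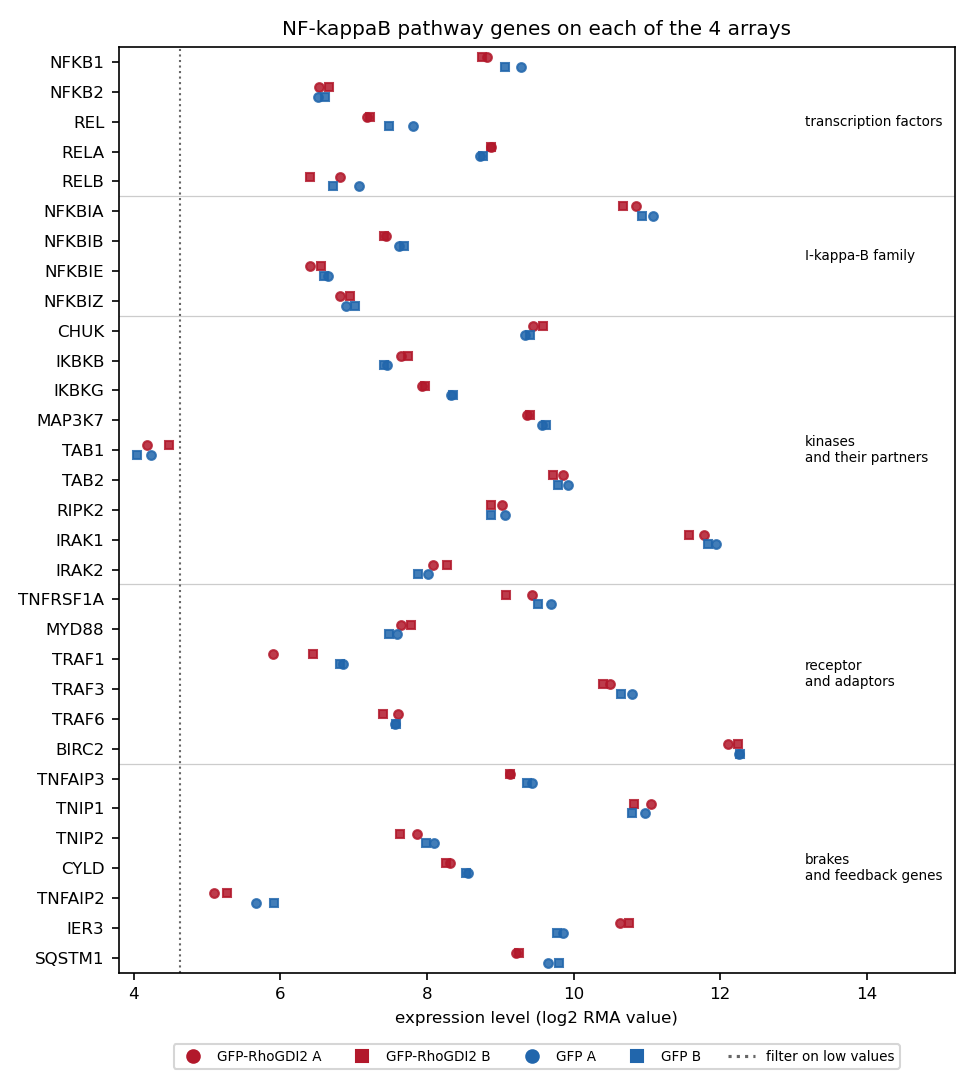
Expression level (log2 RMA value, horizontal axis) of the 31 members with a probe set on each of the 4 arrays, GFP-RhoGDI2 in red above GFP in blue, circles for preparation A and squares for B, grouped by role; the dotted line is the filter at 4.637. BIRC2 is the member with the highest level and TAB1 lies under the filter. IER3, TNFAIP2 and SQSTM1 show clear gaps between the lines, as do uncalled members such as IKBKG and TRAF1.

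The differences of the tested members, called or not, lay mostly on the lower side. Of the 30 tested members, 22 had a negative difference and 8 a positive one, and the median was -0.20, with -0.19 in preparation A and -0.22 in B. Over all genes tested the median was -0.01. In both preparations 20 members, 66.7%, were lower in the GFP-RhoGDI2 line, and this was so for 37.7% of all genes tested; 8 were higher in both (33.7% of all genes). The GFP-RhoGDI2 arrays both lay below both GFP arrays for 17 members, 56.7%, against 29.0% of all genes, and above them for 6 members, 20.0%, against 25.6%. At an unadjusted p under 0.05 the limma fit had 13 members lower and 2 higher, and 14.0% and 13.1% of all genes. Members of a pathway are not replicates, and the genes were not drawn at random, so these shares describe the list and do not test it.

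**Figure D2:**
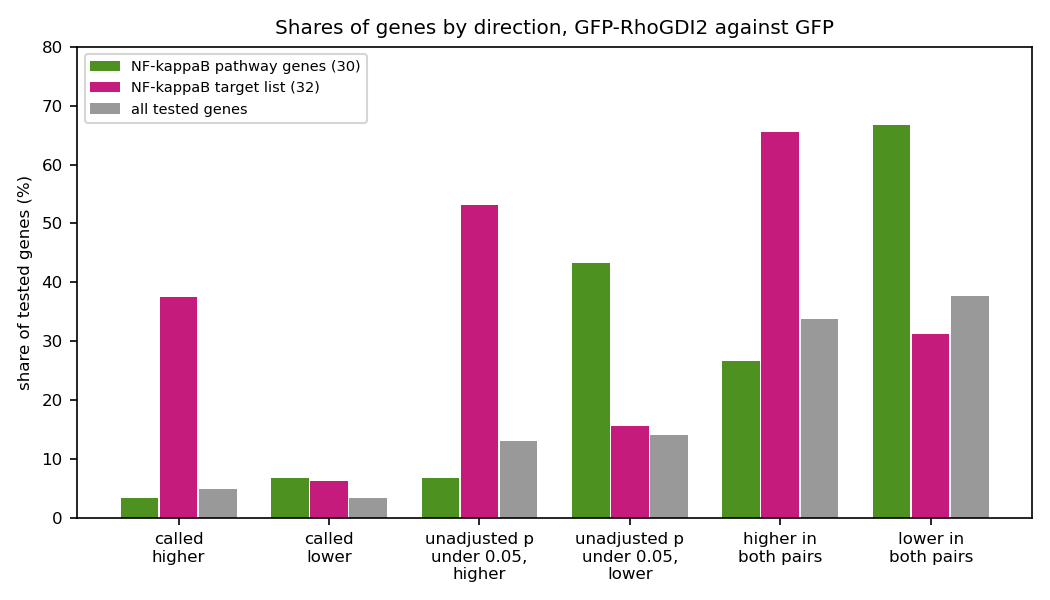
Share of tested genes (percent, vertical axis) that were called, had an unadjusted p under 0.05, or had one sign in both preparations, for the 30 NF-kappaB pathway genes in green, the 32 genes of the NF-kappaB target list in magenta and all 12123 tested genes in grey. Members lie near all genes for calls and above them for lower values (66.7% lower in both preparations against 37.7%). The target list lies above all genes for higher values, but it was chosen with earlier results of these data known. Its shares are thus no independent evidence, and its genes VCAM1 and TNC passed the filter only through the GFP-RhoGDI2 arrays.

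The number of members called differed between settings of the analysis, and so did the background. With an intensity trend 12 members were called lower and 1 higher, where 12.2% and 11.6% of all genes were. Among genes at or above the upper quartile of levels, 9 of 24 members were called lower and 2 higher, where 13.1% and 12.1% of all genes were. With the probe sets of each gene that passed the filter averaged, 8 members were called lower and 1 higher, where 7.93% and 8.83% of all genes were. Probe sets under the filter, such as the further one of TNFAIP2, were not part of these means. In these settings the share of members called lower was above the background and the share called higher was not above it.

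The other settings called as many members or fewer. Without the preparation block 1 member was called lower and 1 higher, where 1.99% and 3.3% of all genes were, and with no filter on low values likewise 1 and 1, where 1.19% and 2.33% were. Robust moderation (3.25% of all genes lower, 4.74% higher) and renewed quantile normalization (2.96% and 4.22%) each kept 2 members lower and 1 higher. Without probe sets of the classes that can match several transcripts, limma called 0 of 17 members in either direction (3.41% of all genes lower, 5.02% higher), with 7 lower and 0 higher at an unadjusted p under 0.05. IER3 and TNFAIP2 are not among the 17, since their only tested probe sets are of those classes, so SQSTM1 is the called member that this setting tested again. Fits that left out 1 array, without the block, called 1 member lower and 1 higher without GFP A (1.09% and 2.21% of all genes), 0 and 1 without GFP B (0.982% and 2.49%), 0 and 1 without GFP-RhoGDI2 A (0.495% and 1.68%), and 1 and 0 without GFP-RhoGDI2 B (0.52% and 1.25%); at an unadjusted p under 0.05 these limma fits had 4 to 9 members lower and 1 higher. Of the 24 members at the upper quartile of levels, 62.5% were lower in both preparations, against 41.8% of all genes at those levels, whose median difference was -0.02.

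IER3 is an early response gene that NF-kappaB and other factors induce and whose product acts on cell survival. It was at 10.64 and 10.76 on the GFP-RhoGDI2 arrays A and B, against 9.86 and 9.77 on the GFP arrays. All GFP-RhoGDI2 values lay above all GFP values, by 0.78 in preparation A and 0.99 in B. The mean was 10.70 ± 0.09 in GFP-RhoGDI2 and 9.81 ± 0.06 in GFP cells (SD, n = 2), a difference of 0.88 (95% interval 0.63 to 1.14), or 1.85-fold, with an adjusted p of 0.0102 by limma. IER3 had 1 probe set. Leaving out the GFP-RhoGDI2 B array and the block ended the call (difference 0.82, adjusted p = 0.0566); over the alternatives its adjusted p ran from 2.95e-08 to 0.0566.

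TNFAIP2 was first found as a gene induced by TNF, and its product shapes membrane protrusions. It was at 5.10 and 5.28 on the GFP-RhoGDI2 arrays and at 5.67 and 5.92 on the GFP arrays. The groups did not overlap. The difference was -0.61 (95% interval -0.84 to -0.38), 1.52-fold lower, with an adjusted p of 0.0219. These levels are not far above the filter, and a further TNFAIP2 probe set, under the filter, was at 4.26 and 4.01 in GFP-RhoGDI2 and at 3.99 and 4.21 in GFP cells, where the lines overlapped. Without the block the call was kept (adjusted p = 0.0497), but it was lost without the GFP B, GFP-RhoGDI2 A or GFP-RhoGDI2 B array, where the differences were -0.48, -0.52 and -0.70 (adjusted p = 0.143, 0.199 and 0.120).

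SQSTM1 encodes p62, a scaffold that binds TRAF6 and carries ubiquitinated cargo to autophagy. Its best probe set was at 9.21 and 9.26 on the GFP-RhoGDI2 arrays and at 9.65 and 9.80 on the GFP arrays, with no overlap. The difference was -0.49 (95% interval -0.72 to -0.25), 1.40-fold lower, with an adjusted p of 0.0393. A second SQSTM1 probe set was also called lower, at 7.44 and 7.33 in GFP-RhoGDI2 and 8.08 and 7.82 in GFP cells (difference -0.56, adjusted p = 0.0295). The other SQSTM1 probe sets above the filter differed by -0.16 and -0.23 and were not called. Both called probe sets are of the class that can match several transcripts; without that class SQSTM1 was at -0.16 (adjusted p = 0.416). Its call was also lost without the block (adjusted p = 0.0575), with no filter on low values (0.0764) and in each fit that left out 1 array, where the difference ran from -0.56 to -0.41.

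**Figure D3:**
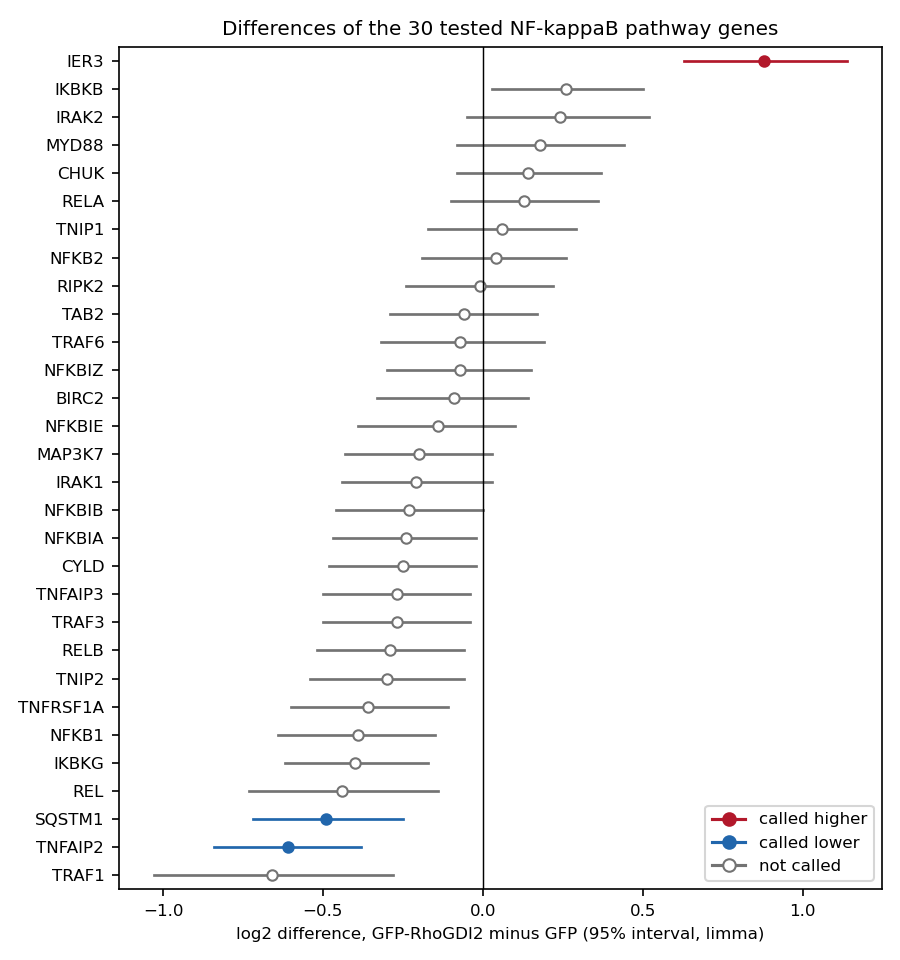
Log2 difference, GFP-RhoGDI2 minus GFP (horizontal axis), with its 95% interval from limma for the 30 tested members, ordered by difference; filled points passed an adjusted p under 0.05. IER3 stands at 0.88, and TRAF1 has the lowest difference, -0.66, and was not called.

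None of the 5 transcription factor genes was called by limma, and 3 had an unadjusted p under 0.05, all lower. At that level 14.0% of all genes tested were lower. NFKB1, whose product is processed to the p50 subunit, was at 8.82 and 8.75 in GFP-RhoGDI2 cells and at 9.29 and 9.06 in GFP cells, a difference of -0.39 (adjusted p = 0.0711). The lines did not overlap. REL, which encodes c-Rel, was at 7.19 and 7.23 in GFP-RhoGDI2 cells and at 7.81 and 7.49 in GFP cells (difference -0.44, adjusted p = 0.0852), and its other probe sets above the filter differed by -0.39 and -0.27. RELA, the transactivating p65 subunit, was at 8.88 on both GFP-RhoGDI2 arrays and at 8.73 and 8.76 on the GFP arrays. That difference of 0.13 had a 95% interval of -0.10 to 0.36 (adjusted p = 0.423). RELB and NFKB2, the partners of the noncanonical branch, differed by -0.29 and 0.04, and RELB overlapped between the lines.

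The I-kappa-B genes were lower in both preparations in 4 of 4 tested cases, as were 37.7% of all genes. By limma 0 were called and 1 was lower at an unadjusted p under 0.05, where 14.0% of all genes were. NFKBIA, the inhibitor that NF-kappaB resynthesises and whose promoter match is printed above, was at 10.85 and 10.68 in GFP-RhoGDI2 cells and at 11.09 and 10.93 in GFP cells. The GFP-RhoGDI2 values lay below the GFP values, by 0.24 on average (95% interval of the difference -0.47 to -0.02, adjusted p = 0.164). NFKBIB differed by -0.23 and its other probe sets by -0.32 each. NFKBIE, which holds c-Rel and RELA dimers, differed by -0.14, and NFKBIZ, a nuclear family member that works on selected target genes, by -0.07.

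Among the kinases and their partners, 0 of 8 tested genes were called by limma. At an unadjusted limma p under 0.05, 1 was higher and 1 lower (13.1% and 14.0% of all genes). These were the I-kappa-B kinase subunits. IKBKG encodes NEMO, the regulatory subunit, and was at 7.93 and 7.98 in GFP-RhoGDI2 cells and at 8.33 and 8.36 in GFP cells, a difference of -0.40 (adjusted p = 0.0605). IKBKG has a near-identical pseudogene copy, so its probe sets may read both. IKBKB, the catalytic subunit of the canonical branch, was at 7.65 and 7.74 in GFP-RhoGDI2 cells and at 7.45 and 7.42 in GFP cells (difference 0.26, adjusted p = 0.154). A probe set of IKBKB with a lower level was called higher, at 5.88 and 5.92 in GFP-RhoGDI2 cells and at 5.36 on both GFP arrays (difference 0.54, adjusted p = 0.0292), and the last IKBKB probe set differed by 0.07. The IKBKB probe sets thus shared a sign but not a size. CHUK, the other catalytic subunit, differed by 0.14.

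Upstream of that complex, MAP3K7, which encodes TAK1, was at 9.37 and 9.41 in GFP-RhoGDI2 cells and at 9.57 and 9.62 in GFP cells (difference -0.20, adjusted p = 0.232), and its 4 probe sets lay between -0.20 and -0.16. TAB2, the TAK1 partner that binds ubiquitin chains, differed by -0.06. TAB1 was under the filter, at 4.19 and 4.49 in GFP-RhoGDI2 cells and at 4.24 and 4.05 in GFP cells, and was not tested. The interleukin-1 receptor kinases IRAK1 and IRAK2 differed by -0.21 and 0.24, and the 2 IRAK1 probe sets by -0.28 and -0.21. RIPK2, a kinase of the NOD receptors, differed by -0.01.

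The receptor and adaptor genes had 0 of 6 called by limma and 3 at an unadjusted p under 0.05, all lower. The share of all genes lower at that level was 14.0%. TRAF1, an adaptor that NF-kappaB itself induces, had the lowest difference of all members. It was at 5.90 and 6.45 in GFP-RhoGDI2 cells and at 6.85 and 6.81 in GFP cells. The GFP-RhoGDI2 arrays were far apart, and the difference was -0.95 in preparation A and -0.36 in B, with a mean of -0.66 that missed the threshold (adjusted p = 0.0609). With the GFP-RhoGDI2 B array and the block left out, the TRAF1 difference was -0.93 and called (adjusted p = 0.0369); without the GFP-RhoGDI2 A array it was -0.38 (0.253).

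TNFRSF1A, the main TNF receptor, was at 9.43 and 9.08 in GFP-RhoGDI2 cells and at 9.69 and 9.52 in GFP cells (difference -0.36, adjusted p = 0.0885). TRAF3, which restrains the noncanonical branch by marking the kinase NIK for destruction, was at 10.50 and 10.40 in GFP-RhoGDI2 cells and at 10.80 and 10.65 in GFP cells (difference -0.27, adjusted p = 0.136). BIRC2, a ubiquitin ligase that works with TRAF3, was the best expressed member, with a mean level of 12.22, and differed by -0.09. TRAF6 and MYD88, which serve the interleukin-1 and Toll-like receptors, differed by -0.07 and 0.18.

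The other brakes and feedback genes, beside the called IER3, TNFAIP2 and SQSTM1, were not called. TNFAIP3, encoding the ubiquitin-editing protein A20, was at 9.13 on both GFP-RhoGDI2 arrays and at 9.43 and 9.37 on the GFP arrays. That difference of -0.27 had a 95% interval of -0.50 to -0.04 (adjusted p = 0.141), and the other TNFAIP3 probe set differed by -0.32. TNIP2, a partner of A20, was at 7.87 and 7.63 in GFP-RhoGDI2 cells and at 8.10 and 7.99 in GFP cells (difference -0.30, adjusted p = 0.118), and its 3 probe sets lay between -0.37 and -0.30. TNIP1, another A20 partner, overlapped between the lines (difference 0.06). CYLD, which trims ubiquitin chains from pathway proteins, differed by -0.25 with its best probe set, and its 5 tested probe sets ran from -0.36 to 0.08.

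**Figure D4:**
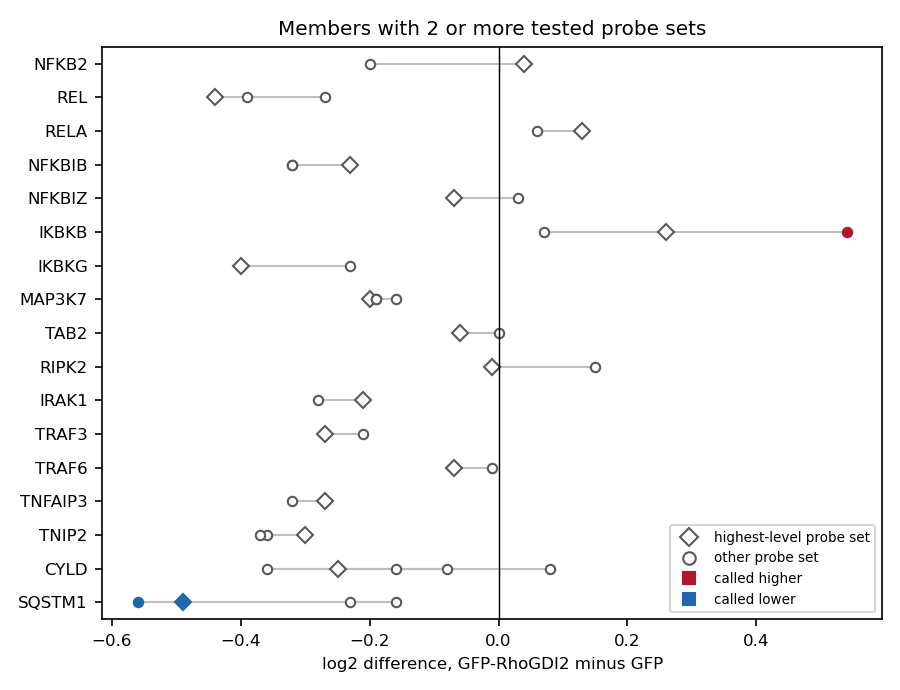
Log2 difference, GFP-RhoGDI2 minus GFP (horizontal axis), of each tested probe set of the 17 members with 2 or more; diamonds are the probe sets that represent the genes and filled symbols were called. In 12 of the 17 members all probe sets share a sign, which was negative in 10 and positive for RELA and IKBKB.

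Probe sets of a member agreed in sign in 12 of the 17 members with more than 1 tested, and 5 had both signs, NFKB2, NFKBIZ, TAB2, RIPK2 and CYLD. Of all 58 tested probe sets of members, 2 were called higher, those of IER3 and IKBKB, and 3 lower, that of TNFAIP2 and both of SQSTM1; of all 27307 tested probe sets, 4.63% were called higher and 3.01% lower. The smallest standard errors, near 0.092, reflect mainly the prior variance of the fit, since 4 arrays say little about the spread of any single gene.

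Among members with the kappa B consensus in the promoter window none was called. Of the 12 tested members with it, 10 were lower in both preparations, 0 were called by limma in either direction, and their median difference was -0.24. The 13 tested members whose windows lacked it had a median of -0.20, with 8 lower in both preparations and 2 called lower. Over all tested genes with the consensus 3.8% were called lower, 5.48% were called higher and 36.9% were lower in both preparations, with a median of -0.01. Over those without it 3.34% were called lower, 4.42% were called higher and 39.3% were lower in both, with a median of -0.02.

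Other genes of the pathway were read from a list of 44, none of them a member. Of 39 tested, 1 was called higher (2.56%, against 4.83% of all genes) and 2 lower (5.13%, against 3.35%), with a median of 0.00. The member calls of this list are thus near the background. Without the block 0 were called by limma (3.3% of all genes higher, 1.99% lower), and 10 had an unadjusted p under 0.05. MAP3K14 encodes NIK, the kinase that starts the noncanonical branch, and fell to 8.20 and 7.90 in GFP-RhoGDI2 cells, against 8.94 and 8.60 in GFP cells (difference -0.72, adjusted p = 0.0139). TBK1, a kinase of the I-kappa-B kinase family, fell to 9.14 and 9.13 in GFP-RhoGDI2 cells, against 9.60 and 9.55 in GFP cells (difference -0.43, adjusted p = 0.0493). PDLIM2, whose product marks nuclear RELA for degradation, was at 8.57 and 8.16 in GFP-RhoGDI2 cells and at 7.88 and 7.71 in GFP cells (difference 0.56, adjusted p = 0.0355).

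Of 31 genes for cytokines and receptors that signal to NF-kappaB, 15 were tested, with 1 called higher, 1 lower and a median of -0.01. Each call is 6.67% of those tested, where 4.83% of all genes were called higher and 3.35% lower. IL18, a cytokine of the interleukin-1 family, was at 6.92 and 7.49 in GFP-RhoGDI2 cells and at 5.53 and 6.22 in GFP cells (difference 1.33, adjusted p = 0.00221). LTBR, the lymphotoxin beta receptor, fell to 8.91 and 8.70 in GFP-RhoGDI2 cells, against 9.35 and 9.17 in GFP cells (difference -0.46, adjusted p = 0.0436 by limma). Without the block LTBR was not called. The largest difference of the list, 2.22, was that of IL1R1, which was not tested and was named after its values were seen. It was at 4.82 and 6.21 in GFP-RhoGDI2 cells and at 3.23 and 3.36 in GFP cells. Its mean of 4.41 is under the filter, so the size is uncertain.

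The genes that NF-kappaB is known to induce in other settings were read beside the members, in a list chosen with earlier results of these data known. Of 40 such genes, 32 were tested; 12 were called higher and 2 lower, 43.8% in all against the background of 8.17%, and the median was 0.26. Of those called higher, VCAM1 and TNC passed the filter only through the GFP-RhoGDI2 arrays, where they are high. Since the list holds chemokines already seen to rise in these arrays, this share is no independent evidence. CXCL1, a chemokine for neutrophils, was at 9.52 and 9.48 in GFP-RhoGDI2 cells and at 5.80 and 6.04 in GFP cells. VCAM1, a leukocyte adhesion molecule, was at 5.81 and 6.18 in GFP-RhoGDI2 cells and at 3.44 and 3.58 in GFP cells, the last values being under the filter, so the size of its difference is uncertain. The same holds for TNC, a matrix protein, at 5.41 and 6.09 in GFP-RhoGDI2 cells and at 4.46 and 4.42 in GFP cells, and in part for CXCL3, a further chemokine, at 7.05 and 7.51 in GFP-RhoGDI2 cells and at 4.51 and 5.10 in GFP cells. The other called genes named here were CXCL8 (2.88), CCL2 (1.79), VEGFC (1.76) and KLF6 (1.26).

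The called genes of this list that fell, named after their values were seen, were CD83 (-0.52), a surface protein of activated dendritic cells, and BCL2A1 (-0.45), a survival protein of the BCL2 family. Without the block 11 genes of the list were called, and BCL2A1, CSF1 and TNFAIP8 were not. ICAM1 and SOD2, which NF-kappaB also induces and which were named in the same way, differed by -0.14 and 0.16 and were not called. The mean level of ICAM1, 4.89, is not far above the filter, and that of SOD2 was 7.19. CXCL10, TNF, CCL20, TNFAIP6, IL6, PTGS2 and SELE, also of this list, had mean levels from 2.8 to 3.86. They were under the filter and not tested, and differed by -0.28 to 0.16. The target list overlaps the cytokine and receptor list by 3 genes and the members by 0. Whether the members and the target list differ was not tested, because both were chosen with results of these data known.

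**Figure D5:**
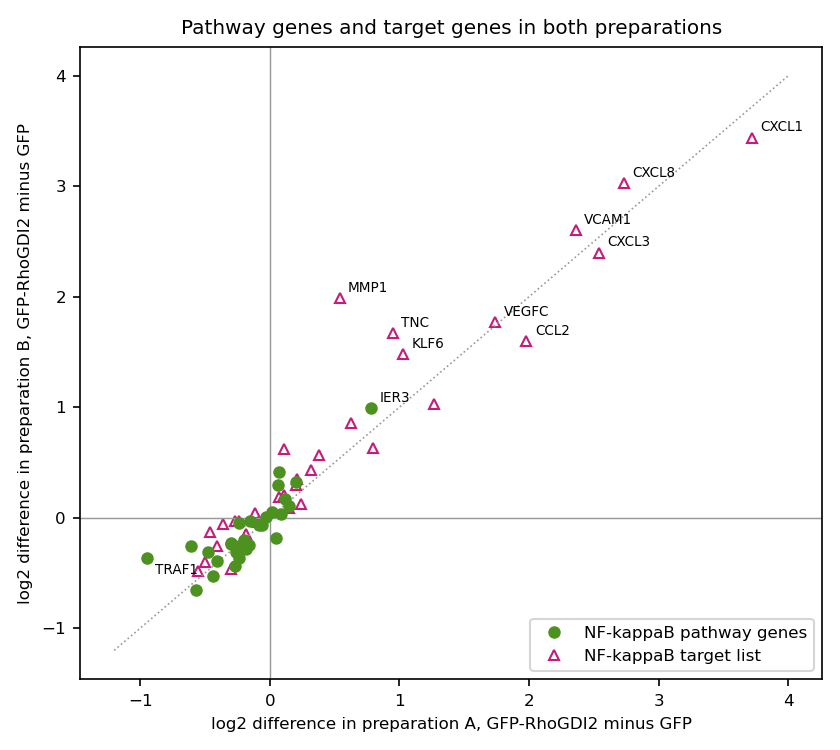
Log2 difference, GFP-RhoGDI2 minus GFP, in preparation A (horizontal axis) and preparation B (vertical axis) for the 30 tested members as green circles and the 32 tested genes of the target list as magenta triangles; the dotted line marks equal differences. Members cluster between -0.95 and 0.99, mostly below 0 in both preparations, while CXCL1, CXCL8, CXCL3 and VCAM1 lie above 2 in both. The target list was chosen with earlier results of these data known.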

How the data were processed

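The deposited values are log2 expression per probe set of the Affymetrix HG-U133 Plus 2.0 array, which the authors computed with RMA (source: per the labels, in the submitters' processing notes); the sources used here name neither the software nor the set of arrays normalized jointly. They were used as deposited. Of 54675 probe sets, 62 controls were left out; the platform annotation gave 1 gene for 41091 of the other 54613, several for 1801, and did not list 11721. Probe sets with a mean over the 4 arrays at or above the median, 4.637, were tested, which left 27307 probe sets and 12123 genes.

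Differences were tested with lmFit and eBayes of limma 3.58.1, run in R 4.3.3; the preparation entered as a block, with Benjamini-Hochberg adjustment over all 27307 probe sets, and a gene was called where the adjusted p was under 0.05. There was 1 residual degree of freedom beside 4.71 from the prior, so p-values rest largely on variance pooled over probe sets. The block comes from the labels, which state that replicates A and B are paired; the A minus B differences of the lines correlated at 0.264 across tested probe sets. Intervals are at 95%. The number of arrays limits the precision. The procedure was tested on simulated data. Promoter windows were searched on both strands.

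Members named by rule are those called, those called without the block, those past 0.5 in both preparations, and the 3 best expressed of each role. The others, NFKB2, RELB, NFKBIE, CHUK, IKBKB, IKBKG, RIPK2, IRAK2, MYD88, TRAF1, TRAF6, TNFAIP3, TNIP2 and CYLD, were named after their values were seen. The values on each array are given for the called members and for some of the rest, whether named by rule or not. From each other list, the called genes were named, up to 8. Members and lists were chosen with earlier results of these data known. Alternatives were a fit without the block, fits lacking 1 array, 2 other filters, a trended and a robust prior, and renewed quantile normalization. Further ones were means of a gene's tested probe sets, and omission of probe sets that can match several transcripts (identifiers ending in _s_at or _x_at).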

Additional observations from a re-analysis of the deposited data

How the results depend on the processing

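With the preparation block left out (a fit with no replicate block), 641 genes were called in all, 1 member was called lower (TNFAIP2) and SQSTM1 was not, 0 of the other pathway genes were called by limma (10 at an unadjusted p under 0.05), and 1 of the cytokine and receptor genes was. Other choices that moved counts were the upper quartile filter (1876 genes, 2 members higher and 9 lower), the intensity trend (2879 genes, 12 members lower), probe set means (2031 genes, 8 members lower, member median -0.17) and no filter on low values (1 member lower). Without shared-transcript probe sets, 17 members were tested, IER3 and TNFAIP2 not among them, and 0 were called higher or lower by limma, with 0 higher and 7 lower at an unadjusted p under 0.05. Leaving out each array in turn, without the block, gave 215 to 421 genes (400 without GFP A, 264 without GFP-RhoGDI2 A), 0 to 1 member higher and 0 to 1 lower (1 and 4 to 9 at an unadjusted p under 0.05), and a member median of -0.21 to -0.14 (-0.16 without GFP-RhoGDI2 B). Renewed quantile normalization and robust moderation moved the counts over members and over all genes by less than 1.5 times. Reversed signs were limited to uncalled members near 0: with probe set means NFKB2 was at -0.08 and RIPK2 at 0.07, without shared-transcript probe sets they were at -0.20 and 0.15, and with single arrays left out NFKB2 ran from -0.03 to 0.10 (-0.01 without GFP A), RIPK2 from -0.11 to 0.09, TAB2 from -0.13 to 0.01, TNIP1 from -0.05 to 0.17 and TRAF6 from -0.17 to 0.03. The causes were not tested.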
